A study of Ovis aries with 14 samples.

Results

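The 6 vehicle arrays of this study describe hypothalamic RNA of late-gestation sheep fetuses that received no triclosan. They are 6 of the 14 arrays in the series and were chosen by their labels. In the fetal arm, 4 catheterised fetuses were infused intravenously with vehicle for 2 days. In the maternal arm, the ewe was infused with vehicle for 2 days, and 3 arrays were deposited. The vehicle liquid is not named in the labels. All fetuses were at about day 130 of gestation. The third maternal vehicle array was left out, because at all 15744 spots its processed signal equalled 0.6 times that of maternal vehicle 1 plus 0.4 times that of maternal vehicle 2, within a relative difference of 1e-05. The maternal arm therefore rests on 2 arrays. The labels do not say whether each array of an arm stands for its own pregnancy, so p-values measure only the spread between these samples, which may in part be technical.

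The hypothalamus is a small region at the base of the brain whose neurons release peptides that govern feeding, water balance, growth, reproduction and the response to stress. Part of these peptides travel through a short portal circulation to the anterior pituitary, and oxytocin and vasopressin are carried along axons to the posterior pituitary. Before birth the same circuits mature in parallel with the fetal adrenal and thyroid axes.

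Each level below is the log2 processed signal of a probe minus the log2 of the 75th percentile of its array, so a level of 0 is a spot as bright as that percentile. Of 15008 probes, 1551 carried a gene symbol, for 961 genes, and each gene is represented by its brightest probe. Of these genes, 898 were well above background on at least 2 of the 6 arrays, and 817 on all 6. On none of the 6 arrays was the signal of 40 genes well above background. Of these 40, 3 are on the lists of hypothalamic genes, namely the ghrelin receptor GHSR, the gonadotropin-releasing hormone receptor GNRHR and the adrenocorticotropin receptor MC2R. Median signal was 315 on fetal vehicle 2 and 351 to 380 on the other 5 arrays, the share of spots well above background ran from 84.8% to 89.9%, and no spot was saturated.

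The brightest named probe was that of FTH1, the ferritin heavy chain of iron storage. It had a level of 7.81 on fetal vehicle 1, 7.70 on fetal vehicle 3, 7.76 on fetal vehicle 4 and 7.76 on maternal vehicle 1. Its spots on fetal vehicle 2 and maternal vehicle 2 carried outlier marks and were left out, as were those of RPL6, PPIA, TPT1 and CXCL1 on one or both of these arrays. Other genes among the brightest were RPL6 at 7.03 ± 0.10 (SD, n = 4 arrays), PPIA (cyclophilin A) at 6.88 ± 0.09 (SD, n = 5) and TPT1 at 6.80 ± 0.08 (SD, n = 4). PPIA and TPT1 are neighbours whose arrays overlap, while FTH1 lay above RPL6, and RPL6 above PPIA, on every array where both were measured. Ribosomal and translation genes took 15 of their 16 measured places among the 1501 brightest probes, against 136 of all 961 named genes, and the exception was RPL32.

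**Figure D1:**
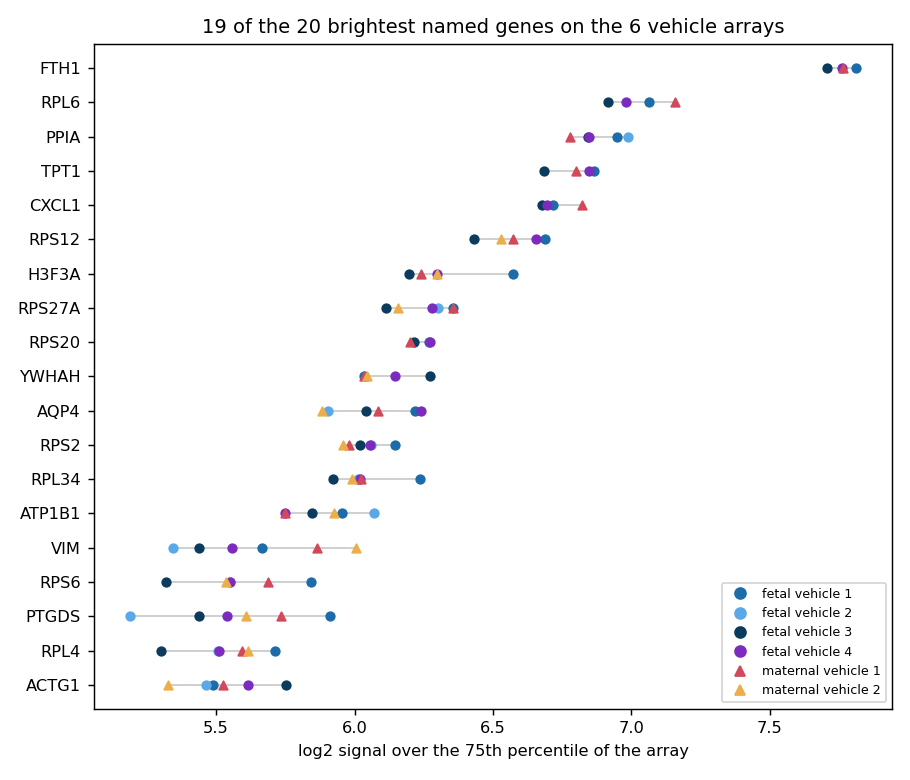
Levels (log2 signal over the 75th percentile of the array, x axis) of 19 of the 20 brightest named genes on the vehicle arrays, with circles for the 4 fetal vehicle arrays and triangles for the 2 maternal vehicle arrays; a missing point is a spot with an outlier mark. FTH1 lies near 7.76, ACTG1 near 5.53, and the triangles of VIM, at 5.87 and 6.004, lie above its circles.

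Among the 20 brightest, 4 genes belong to the glial and meningeal side of the tissue or to ion transport. AQP4, the water channel of astrocyte endfeet, had levels of 6.22, 5.90, 6.04 and 6.24 on fetal vehicle 1 to 4 and of 6.08 and 5.88 on maternal vehicle 1 and 2. The arms overlapped for AQP4. VIM, the intermediate filament of radial glia and tanycytes, had levels of 5.67, 5.34, 5.44 and 5.56 in the fetal arm and of 5.87 and 6.004 in the maternal arm. Both maternal arrays were above all fetal arrays for this VIM probe. For the second VIM probe the arms overlapped, with fetal vehicle 4 at 5.418 and maternal vehicle 1 at 5.408. The arms did not overlap for 142 of 886 named genes measured on all 6 arrays (16%). PTGDS, which makes prostaglandin D2 and is abundant in the meninges, averaged 5.57 ± 0.25 (SD, n = 6), and ATP1B1, a subunit of the sodium pump, averaged 5.88 ± 0.13 (SD, n = 6). CXCL1, a chemokine, was also among these 20, at 6.73 ± 0.06 (SD, n = 4) for its brighter probe. Whether these bright CXCL1 probes read only that transcript was not tested.

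The order is one of probe brightness, which is not the amount of RNA of 1 gene against another. The GAPDH probes show this. The probe that the array annotates as GAPDH, the glycolytic enzyme, shares 20 bases, shown in capitals, with the opposite strand of a probe that the array describes as glyceraldehyde-3-phosphate dehydrogenase mRNA.
GAPDH-annotated probe: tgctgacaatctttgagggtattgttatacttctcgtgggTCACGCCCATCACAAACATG
Opposite-strand probe: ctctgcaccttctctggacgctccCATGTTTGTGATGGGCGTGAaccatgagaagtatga
The first had levels from -1.95 to -1.35 over the 6 arrays and the second from 3.89 to 4.22. The ranges do not meet on any array, so the GAPDH level of -1.67 in the ranking comes from a probe on the strand opposite to the brighter one. Of 34 pairs of probes on the array that share at least 20 bases on opposite strands, 33 differed by more than 1 in mean level, with a median of 5.81. The only ACTB (beta-actin) probe was well above background on 1 of the 6 arrays, while the ACTG1 (gamma-actin) probe averaged 5.53.

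Markers of the tissue were checked next. For the astrocyte list, 6 of 12 genes were on the array under the listed symbols, all 6 well above background on all arrays: AQP4, GFAP, the glutamate transporters EAAT1 and EAAT2, GJA1 and FGFR3. GFAP, the filament of astrocytes, averaged 0.75 ± 0.22 (SD, n = 6). No gene of the neuron list and none of the oligodendrocyte list was measured under its listed symbol, so these cell types could not be checked by them. Of the list of neuronal transmission, 9 of 42 genes were measured, 8 of them well above background on all arrays, led by the AMPA receptor subunits GRIA2 at 1.51 ± 0.25 (SD, n = 6) and GRIA1 at 1.17 ± 0.27 (SD, n = 6). GRIA2 had its highest level, 1.96, on fetal vehicle 4.

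Peptides that mark the hypothalamus were present at very different brightness. CPE, the carboxypeptidase that trims neuropeptide precursors, lay at the 98.6th percentile of all probes, with levels from 4.56 to 4.97. ASIP, agouti signalling protein and a relative of AGRP at melanocortin receptors, had levels of 3.72, 3.77, 5.15 and 4.63 in the fetal arm and of 4.55 and 5.01 in the maternal arm. Fetal vehicle 1 and 2 were lowest for ASIP and the arms overlapped. Its second probe was dimmer, at 1.38, 1.48, 3.08 and 2.42 and at 2.42 and 2.79, and gave the same 2 lowest arrays. SST, somatostatin, the inhibitor of growth hormone release, had levels of 3.82, 2.46, 2.80 and 3.53 in the fetal arm and 3.47 and 2.76 in the maternal arm. In each arm the array on slide 1 was the highest for SST. TAC1, the precursor of substance P, had levels of 2.12, 1.76, 1.99 and 2.18 in the fetal arm and of 1.24 and 1.42 in the maternal arm, which do not overlap. OXT, oxytocin, had levels of 0.69, 0.23, 1.75 and 1.15 in the fetal arm and 1.43 and 0.66 in the maternal arm, which overlap.

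**Figure D2:**
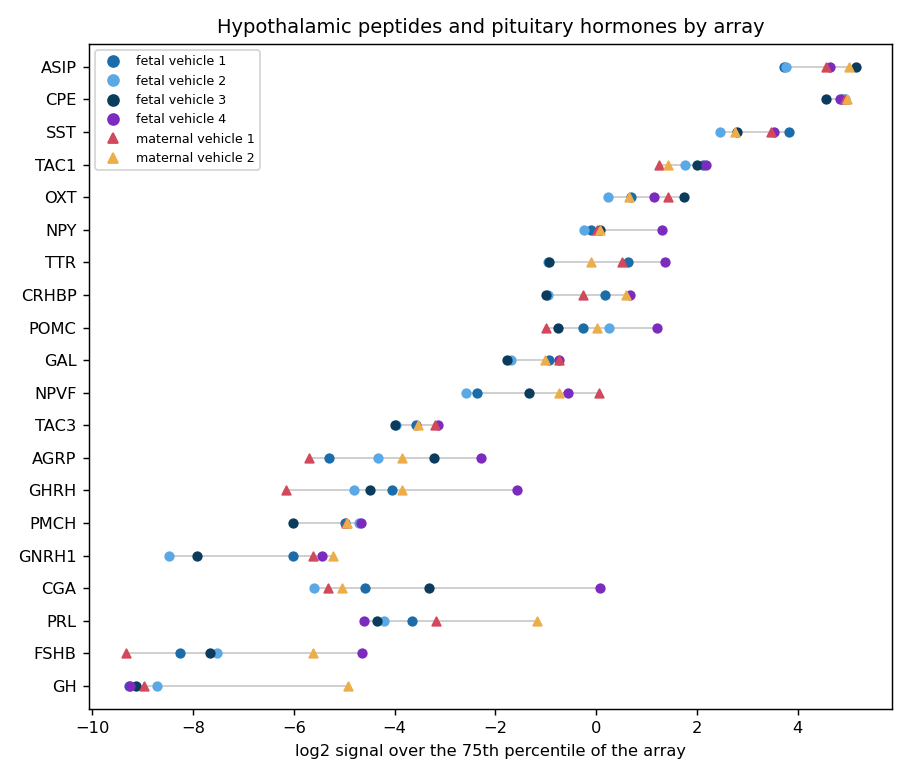
Levels (log2 signal over the 75th percentile of the array, x axis) of hypothalamic peptides, related proteins and pituitary hormones on each vehicle array, circles for the 4 fetal and triangles for the 2 maternal arrays, with a grey line from the lowest to the highest. The purple circle of fetal vehicle 4 lies apart for CGA at 0.07, GHRH at -1.57 and NPY at 1.30, and the yellow triangle of maternal vehicle 2 lies apart for PRL at -1.19 and GH at -4.93.

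The feeding peptides of the arcuate nucleus varied between arrays. NPY, which drives feeding, had levels of -0.10, -0.25, 0.07 and 1.30 in the fetal arm and of 0.01 and 0.07 in the maternal arm. POMC, the precursor of the satiety peptide alpha-melanocyte-stimulating hormone, had -0.26, 0.26, -0.77 and 1.21 in the fetal arm and -1.01 and 0.01 in the maternal arm. AGRP, which blocks melanocortin receptors, had -5.30, -4.34, -3.22 and -2.29 in the fetal arm and -5.71 and -3.85 in the maternal arm. Fetal vehicle 4 was the highest array for NPY, POMC and AGRP, although NPY and AGRP drive feeding and POMC restrains it. Of the other orexigenic genes, GAL (galanin) ranged from -1.77 to -0.75 and PMCH (melanin-concentrating hormone) from -6.02 to -4.67. The orexin receptors HCRTR1 and HCRTR2 varied little, from -3.88 to -3.32 and from -2.94 to -2.54. LEPR, the leptin receptor, was dim, from -7.05 to -6.08, and well above background on 5 of the 6 arrays. Leptin itself, LEP, ranged from -3.43 to -2.78. In all, 10 of 16 orexigenic and 3 of 18 anorexigenic list genes were on the array.

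The peptides of growth and reproduction also varied between arrays. GHRH, which drives growth hormone release, had levels of -4.04, -4.82, -4.49 and -1.57 in the fetal arm and -6.15 and -3.85 in the maternal arm, with fetal vehicle 4 the highest. Both GHRH probes gave this order at the highest and lowest array. GNRH1, the gonadotropin-releasing hormone, had -6.03, -8.48, -7.91 and -5.44 in the fetal arm and -5.61 and -5.23 in the maternal arm, and it was well above background on 4 arrays. NPVF, the precursor of gonadotropin-inhibitory RFamide peptides, had -2.37, -2.58, -1.34 and -0.57 in the fetal arm and 0.06 and -0.74 in the maternal arm. The arms overlapped for GNRH1 and NPVF. TAC3 (neurokinin B) ranged from -4.00 to -3.14, and the estrogen receptor ESR1 from -1.66 to -0.31. ESR1 was lower on slides 2 and 3 than on both arrays of slide 1 with the exception of fetal vehicle 4, at -0.42.

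Receptors and binding proteins of the growth, stress and thyroid axes ran from the 94.5th percentile of all probes for IGFBP2 down to MC2R, well above background on none of the 6 arrays. IGFBP2, a binding protein of insulin-like growth factors, averaged 2.93 ± 0.22 (SD, n = 6), and the somatostatin receptor SSTR2 averaged -1.31 ± 0.27 (SD, n = 6). The growth hormone receptor GHR ranged from -2.67 to -2.18 and the IGF receptor IGF1R from -3.10 to -2.67. The corticotropin-releasing hormone binding protein CRHBP had levels of 0.17, -0.96, -0.99 and 0.68 in the fetal arm and -0.26 and 0.58 in the maternal arm. Fetal vehicle 2 and 3 were lowest for CRHBP. The glucocorticoid receptor NR3C1 ranged only from -4.57 to -4.20, and HSD11B1, which regenerates cortisol, from -0.57 to 0.10. HSD11B2, which inactivates cortisol, was well above background on 2 arrays. The thyroid hormone receptor THRB averaged -2.56 ± 0.25 (SD, n = 6), whereas THRA was well above background on 1 array. The oxytocin receptor OXTR ranged from -5.84 to -5.07. The thyrotropin-releasing hormone receptor TRHR ranged from -3.08 to -1.81 and the corticotropin-releasing hormone receptor CRHR1 from -5.69 to -3.77. IGF2, a fetal growth factor, had 0.21, 0.36, -0.56 and 1.04 in the fetal arm and -0.22 and 1.34 in the maternal arm. Fetal vehicle 4 and maternal vehicle 2 were highest for IGF2. The receptor SSTR5 had -2.79, -2.17, -1.47 and -1.60 in the fetal arm and -2.60 and -2.24 in the maternal arm, lowest on the arrays of slide 1.

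The spread between the 4 fetal vehicle arrays was small for most genes. The median SD was 0.22 over the 817 named genes well above background on all 6 arrays, and 0.18 over all 12469 such probes. Dim probes spread more: the median SD over the fetal arrays was 0.63 in the 1368 dimmest of the 13679 probes tested and 0.13 in the 1368 brightest. Genes with the smallest SD were LCAT, a cholesterol acyltransferase, at 0.015, CXCL1 at 0.020 over 3 arrays, RAB9A at 0.024, HEXA at 0.029 and ODC1, the first enzyme of polyamine synthesis, at 0.031. LCAT, whose arms did not overlap, had levels of 1.21, 1.24, 1.22 and 1.24 in the fetal arm and of 1.42 and 1.33 in the maternal arm.

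**Figure D3:**
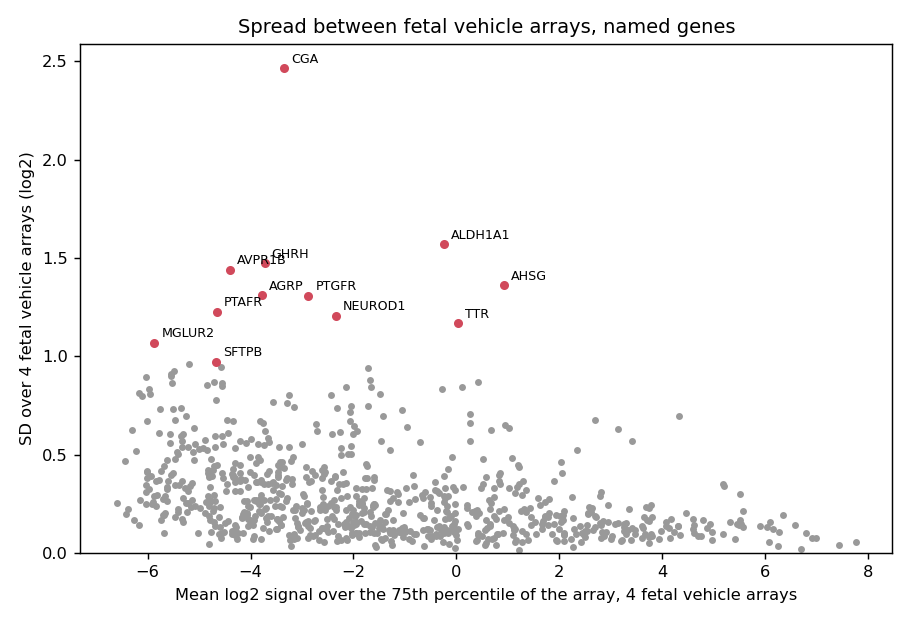
SD over the 4 fetal vehicle arrays (log2, y axis) against mean level (log2 signal over the 75th percentile of the array, x axis), 1 point for each of the 817 named genes well above background on all 6 arrays, with the 12 of largest SD in red. CGA stands highest at an SD of 2.47, and the points narrow toward the bright end.

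Among the 12 genes of largest spread, several stood apart on 1 array. CGA, the alpha subunit shared by the pituitary glycoprotein hormones, had levels of -4.59, -5.59, -3.31 and 0.07 in the fetal arm and -5.32 and -5.05 in the maternal arm, an SD of 2.47 in the fetal arm. Its second probe had 0.30 on fetal vehicle 4 and -6.60 to -3.36 on the other 5. ALDH1A1, which makes retinoic acid, had -0.76, -1.42, -0.85 and 2.08 in the fetal arm and -1.01 and 0.34 in the maternal arm. PTGFR, the receptor of prostaglandin F2 alpha, had -3.96, -3.12, -3.45 and -0.99 in the fetal arm and -3.50 and -1.38 in the maternal arm. Fetal vehicle 4 was the highest array for each of these 3 genes. TTR, the thyroid hormone carrier made by the choroid plexus, had 0.63, -0.97, -0.94 and 1.37 in the fetal arm and 0.50 and -0.11 in the maternal arm. AHSG, a fetal plasma protein, had 1.73, -0.995, 2.03 and 0.95 in the fetal arm and 1.08 and 0.98 in the maternal arm, with fetal vehicle 2 the only low array. PTAFR, the receptor of platelet-activating factor, had -6.16, -5.16, -3.68 and -3.63 in the fetal arm and -5.19 and -5.25 in the maternal arm, with both arrays of slide 3 the highest. Its dimmer probe, well above background on 3 arrays, did not show this order. That probe had -6.45, -7.51, -6.32 and -7.16 in the fetal arm, an SD of 0.57 against 1.23. NEUROD1, a neuronal transcription factor, had -0.54 on fetal vehicle 1 and -3.06 to -2.52 on the other 5.

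Of 805 named genes that were measured and well above background on all 6 arrays, 13 had 1 array more than 1 above every other. Fetal vehicle 4 was that array for 7 of them: NPY, ALDH1A1, CGA, GHRH and 3 genes named EM4B, EM4C and EM4e in the files. The others were NEUROD1 on fetal vehicle 1, AVPR1B and MGLUR2 on fetal vehicle 3, MYOD1 on maternal vehicle 1, and PRL and COL2A1 on maternal vehicle 2. None was on fetal vehicle 2.

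Part of the anterior pituitary list was high on the same arrays. Of the 14 genes of that list, 9 were measured, and their mean level was -4.26 on fetal vehicle 4 and -4.25 on maternal vehicle 2, against -5.61 to -5.11 on the other 4 arrays. PRL, prolactin, had levels of -3.65, -4.20, -4.36 and -4.62 in the fetal arm and -3.19 and -1.19 in the maternal arm. GH, growth hormone, was at -4.93 and well above background on maternal vehicle 2 only, and lay between -9.28 and -8.71 on the other 5. FSHB, the follicle-stimulating hormone subunit, was well above background on fetal vehicle 4 and maternal vehicle 2, at -4.64 and -5.62. PRL and GH were thus highest on maternal vehicle 2, and CGA and FSHB on fetal vehicle 4, where PRL was lowest. LHB, the luteinizing hormone subunit and the brightest of the 9, had levels of 3.83, 3.41, 3.89 and 3.88 in the fetal arm and 3.90 and 3.71 in the maternal arm. By this probe LHB sets neither array apart. Its second probe was far dimmer, at -3.17, -3.23, -3.40 and -2.80 in the fetal arm and -2.90 and -3.36 in the maternal arm. Fetal vehicle 4 was its highest array. Which of these probes reads LHB was not tested. The list mean includes GNRHR, GH, POU1F1 and FSHB, which were well above background on 0, 1, 2 and 2 arrays. What part pituitary RNA has in the levels of NPY, POMC, AGRP and GHRH on fetal vehicle 4 was not tested. Fewer cells of a type and less RNA per cell cannot be told apart in such tissue samples.

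Lists of other neighbouring tissues differed between arrays as well. NEUROD1 was the only measured gene of the thalamus and cortex list, and fetal vehicle 1 was its high array, as given above. The choroid plexus list had 3 of 10 genes measured, and its mean level ran from -3.11 to -1.77 in the fetal arm, with -2.17 and -2.36 in the maternal arm. AQP1, a water channel of that tissue, was well above background on 1 array. For the connective tissue list, 8 of 13 genes were measured and the mean level ran from -1.08 on fetal vehicle 2 to -0.67 on maternal vehicle 1. Of the erythroid list, 4 of 14 genes were measured. HBB, beta-globin, had levels of 2.37, 2.70, 2.07 and 3.63 in the fetal arm and 1.70 and 3.15 in the maternal arm. Its second probe ranged wider, from -1.11 on fetal vehicle 1 to 3.19 on fetal vehicle 4. Of the leukocyte list, 7 of 17 genes were measured, with FCER1G, the shared chain of Fc receptors, the brightest at -0.84 ± 0.34 (SD, n = 6), and CD4 well above background on 1 array. The endothelial list had 6 of 15 genes measured, led by PECAM1 at -0.76 ± 0.28 (SD, n = 6) and ABCB1, the efflux pump of the blood-brain barrier, at -1.54 ± 0.26 (SD, n = 6).

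Probes of nearly the same sequence gave a measure of error within an array. Among pairs sharing at least 40 consecutive bases and well above background on all 6 arrays, 223 belonged to named genes, and the median SD of the twins' difference over arrays, divided by the square root of 2 to give that of a single probe, was 0.090, against 0.27 between arrays. In 17 of the 223, 1 array departed by more than 1 from the pair's mean difference. AVPR1B, the vasopressin receptor of the pituitary, and MGLUR2, a metabotropic glutamate receptor, are 2 of them, shown because each owes its place among the 12 genes of largest spread to 1 of its probes. GHRH is shown as a pair that held together. The bases shared within a pair are in capitals.
AVPR1B probe A: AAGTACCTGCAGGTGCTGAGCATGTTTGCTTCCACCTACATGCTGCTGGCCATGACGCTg
AVPR1B probe B: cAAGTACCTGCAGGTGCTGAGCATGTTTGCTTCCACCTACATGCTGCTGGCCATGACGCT
MGLUR2 probe A: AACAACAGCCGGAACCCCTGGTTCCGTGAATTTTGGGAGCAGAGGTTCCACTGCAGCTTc
MGLUR2 probe B: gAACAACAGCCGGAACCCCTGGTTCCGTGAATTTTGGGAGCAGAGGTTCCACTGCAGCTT
GHRH probe A: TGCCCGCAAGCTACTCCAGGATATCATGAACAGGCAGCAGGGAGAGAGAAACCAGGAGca
GHRH probe B: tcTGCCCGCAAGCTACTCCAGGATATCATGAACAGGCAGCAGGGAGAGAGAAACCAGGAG
On fetal vehicle 3, AVPR1B probe A was at -2.31 and probe B at -6.13, and on the other 5 arrays probe A lay between -5.39 and -4.54. MGLUR2 probe B was at -4.28 on fetal vehicle 3 and at -6.52 to -6.24 elsewhere, while probe A stayed between -6.42 and -5.95. The 2 GHRH probes were at -1.60 and -1.57 on fetal vehicle 4 and at -6.46 and -6.15 on maternal vehicle 1. The spread of AVPR1B and MGLUR2 is therefore that of 1 probe, and that of GHRH is shared by both.

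By the SD of their differences, the vehicle arrays resembled each other by slide more than by arm. Per the file headers, slide 1 held fetal vehicle 1 and maternal vehicle 1, slide 2 held fetal vehicle 2 and maternal vehicle 2, and slide 3 held fetal vehicle 3 and 4. The SD of the log2 difference over 13571 probes was 0.40 between the arrays of slide 1, 0.48 on slide 2 and 0.46 on slide 3. For the 12 pairs from different slides it was 0.52 to 0.68. The pair of closest arrays thus joined the fetal and the maternal arm. By the median absolute difference this pair was again the closest, at 0.153, but the split by slide was lost. The maternal vehicle arrays, on different slides, differed by 0.181, against 0.182 for the pair on slide 3 and 0.186 for that on slide 2. The triclosan arrays of the same slides did not show this order: 3 pairs from the same slide differed by 0.65 to 0.75 and 12 pairs from different slides by 0.53 to 0.85. Each same-slide triclosan pair joined a fetal and a maternal array, whereas the vehicle pair of slide 3 lay within the fetal arm. The closest triclosan pairs, at 0.53 and 0.54, were of maternal arrays on different slides, so arm and slide are mixed in this contrast. Across 13679 probes the difference between slides 3 and 1 in the vehicle arrays correlated with that in the triclosan arrays at r = 0.18, and that between slides 2 and 1 at r = 0.05 across 13645 probes, given as descriptions.

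**Figure D4:**
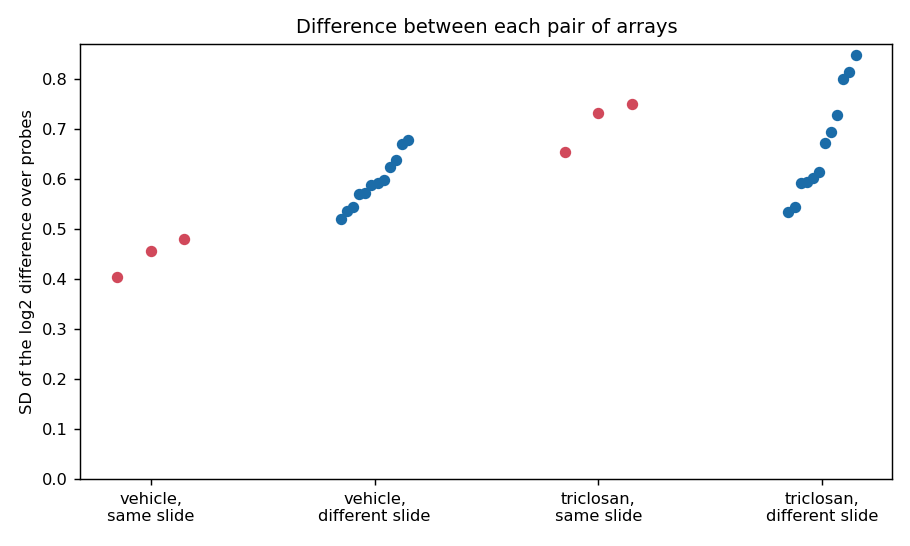
SD over probes of the log2 difference between 2 arrays (y axis), 1 point per pair, for the 6 vehicle arrays and, for comparison, the 6 triclosan arrays of slides 1 to 3. The 3 vehicle pairs from the same slide, at 0.40 to 0.48, lie under the 12 others. The same-slide triclosan pairs, each of a fetal and a maternal array, do not.

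A limma F test of slide in a model of arm and slide, chosen after this order was seen, called 289 of 13645 probes (2.12%) at an adjusted p of 0.045. Of 892 named genes, 29 (3.25%) were called, 26 of them below the 50th percentile of brightness. At an unadjusted p under 0.05 there were 2591 probes (19%) and 224 named genes (25.1%). The same test in the 6 triclosan arrays called 0 of 13656 probes, with 1193 (8.74%) at an unadjusted p under 0.05. The call rests on the edge of the threshold: it fell to 0 under quantile normalisation, under normexp background correction, in the authors' values, and without any 1 of fetal vehicle 1 to 4 or maternal vehicle 1 or 2. With the triclosan arrays of slides 1 to 3 added to the 6 vehicle arrays, the slide test called 228 of 13667 probes. The lowest adjusted p of that limma fit was 0.013. NOX1, an NADPH oxidase well above background on 4 arrays, had levels of -4.52 and -4.24 on slide 1, -6.04 and -6.25 on slide 2 and -7.80 and -7.63 on slide 3. SFTPB, a lung surfactant protein and 1 of the 12 genes of largest spread, had -5.96 and -5.95 on slide 1, -4.87 and -5.00 on slide 2 and -3.85 and -3.99 on slide 3. The order and the spread of SFTPB are those of 1 probe. Its second probe was highest on slide 1, at -4.72 and -4.85, then -5.27 and -5.38, then -5.33 and -5.65. The SD of this second probe in the fetal arm was 0.39, against 0.97. LHCGR, the luteinizing hormone receptor, had -3.89 and -3.85, then -5.09 and -5.13, then -5.99 and -5.85. These 3 genes are examples taken from those of smallest p, so their order by slide is a description. Slide number and replicate number coincide apart from fetal vehicle 4, and slide cannot be told apart from whatever else the same-numbered samples share.

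The maternal against the fetal vehicle arm was the comparison the design allows. It sets an infusion into the ewe against an infusion into the fetus with no triclosan in either. No probe of 13679 was called (0%) by limma at an adjusted p under 0.05, and the lowest adjusted p was 0.464. At an unadjusted p under 0.05 there were 831 probes (6.08%), 431 of them (3.15%) with a higher and 400 (2.92%) with a lower level in the maternal arm. Of 898 named genes, 61 (6.79%) were at an unadjusted p under 0.05, 29 (3.23%) with a higher and 32 (3.56%) with a lower maternal level. The levels of the arms did not overlap for 142 of 886 named genes measured on all 6 arrays (16%), and for 2318 of 13571 probes (17.1%). With 4 against 2 arrays an exact permutation test of a single value cannot go below p = 0.067. The median difference over all probes was 0.0056.

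For the 20 genes of smallest unadjusted p, differences ran from -2.15 to 2.02 on the log2 scale, and none passed the threshold. For PDIA4, a chaperone of the endoplasmic reticulum, levels were -1.58, -1.48, -1.26 and -1.64 in the fetal arm and -0.59 and -0.62 in the maternal arm. The difference was 0.89 ± 0.14 (SE, limma, adjusted p = 0.70), with both maternal arrays above all fetal arrays, and it was 0.99 on slide 1 and 0.87 on slide 2. HSP90AA1, a cytosolic chaperone, had 3.32, 3.44, 3.35 and 3.45 in the fetal arm and 3.88 and 3.73 in the maternal arm, a difference of 0.42 ± 0.10 (SE, limma, adjusted p = 0.79). EAAT2, the glutamate transporter of astrocytes, had -1.96, -1.97, -2.21 and -2.19 in the fetal arm and -1.57 and -1.35 in the maternal arm, a difference of 0.62 ± 0.13 (SE, limma, adjusted p = 0.79). The maternal triclosan arrays, which other comparisons set against these same maternal vehicle arrays, had PDIA4 at -1.62, -1.71 and -1.26, EAAT2 at -3.08, -3.08 and -2.55, and HSP90AA1 at 2.80, 2.65 and 3.22. The fetal triclosan arrays had PDIA4 at -2.81, -2.91, -2.26 and -1.85, EAAT2 at -1.89, -2.64, -2.53 and -2.47, and HSP90AA1 at 2.43, 2.72, 2.58 and 2.61. As these 3 genes were chosen for a high maternal vehicle mean, nothing is read from their place against the triclosan arrays.

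**Figure D5:**
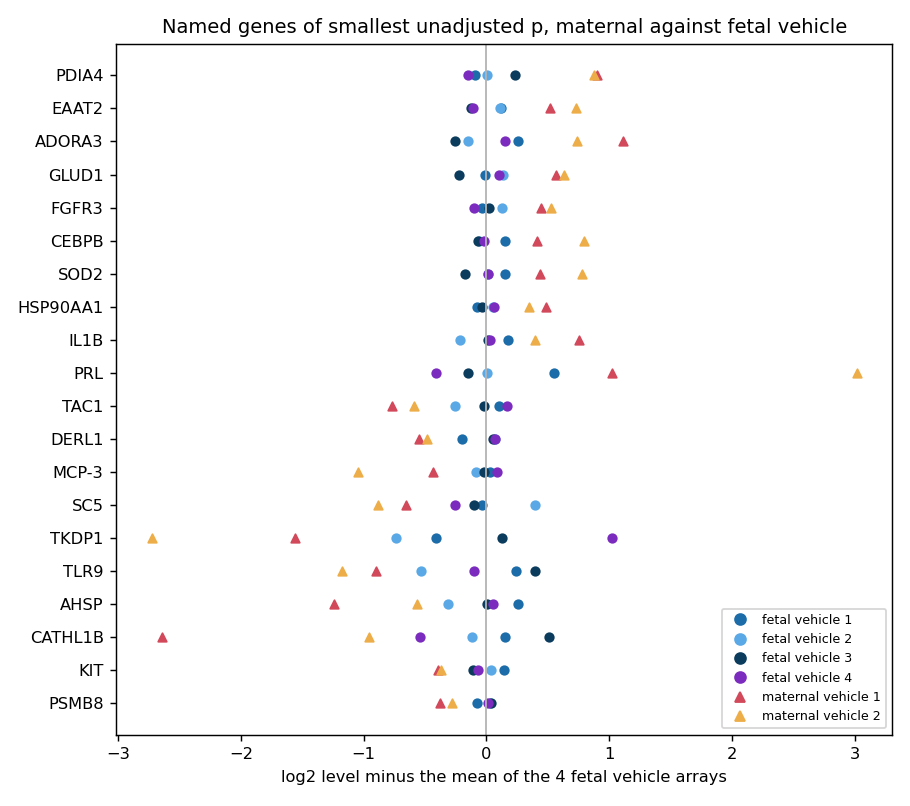
Level of each vehicle array minus the mean of the 4 fetal vehicle arrays (log2, x axis) for the 20 named genes of smallest unadjusted p, 10 with a higher and 10 with a lower maternal mean; circles are fetal and triangles maternal vehicle arrays. Both triangles lie on one side of all circles for each of these genes, which were chosen by their p, and for PRL the 2 triangles lie 2.00 apart.

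The other 7 genes with a higher maternal mean were ADORA3 (an adenosine receptor), GLUD1 (glutamate dehydrogenase), FGFR3, CEBPB, SOD2 (mitochondrial superoxide dismutase), IL1B and PRL. Their differences ran from 0.48 for FGFR3 to 2.02 for PRL. PRL differed by 0.47 between the arrays of slide 1 and by 3.02 between those of slide 2, and without maternal vehicle 2 its difference was 1.02. Among the 10 genes with a lower maternal mean, TAC1 differed by -0.68 ± 0.15 (SE, limma, adjusted p = 0.79), by -0.87 on slide 1 and by -0.34 on slide 2. The fetal triclosan arrays had TAC1 at 2.25, 2.52, 2.43 and 2.34 and the maternal triclosan arrays at 1.61, 1.80 and 1.57. DERL1, which helps export misfolded proteins from the endoplasmic reticulum, had -0.44, -0.17, -0.19 and -0.18 in the fetal arm and -0.80 and -0.73 in the maternal arm. The others were MCP-3 (a mast cell proteinase, per the array), the cathelin-related SC5, CATHL1B, TKDP1, TLR9, AHSP, KIT and PSMB8, with differences from -2.15 for TKDP1 to -0.33 for PSMB8. That of CATHL1B was -1.80, and -0.96 without maternal vehicle 1, that of MCP-3 was -0.74, and -0.43 without maternal vehicle 2, and that of AHSP was -0.90, and -0.56 without maternal vehicle 1. All 10 had adjusted p-values of 0.79 in limma.

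Read by list, the largest median difference among lists of more than 1 tested gene was in the erythroid list, at -0.58 over 4 genes. By their brightest probes none of the 4 had a higher maternal mean, and AHSP and CA1 had an unadjusted p under 0.05. The second HBB probe had a higher maternal mean, at -1.11, 2.34, 0.31 and 3.19 in the fetal arm and 1.13 and 2.51 in the maternal arm. With the brightest probes, the mean level of the erythroid list was -2.84 to -2.56 in the fetal arm and -3.55 and -2.99 in the maternal arm, which do not overlap. With the second HBB probe in place of the first, the arms overlap. The list mean of maternal vehicle 2 then lies above those of fetal vehicle 1 and 3. The 6 astrocyte genes had a median difference of 0.32, 5 of them with a higher maternal mean, and 2 (EAAT2 and FGFR3) had an unadjusted p under 0.05, against a median of 0.0056 and 6.08% over all probes. The heat shock and unfolded protein list had a median of 0.33 over 7 genes, 6 with a higher maternal mean and 3 at an unadjusted p under 0.05. The ribosomal list had a median of -0.036 over 16 genes. For the 7 lists of hypothalamic peptides and receptors, TAC1 was the only gene at an unadjusted p under 0.05. No list held a gene called at an adjusted p under 0.05.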

How the data were processed

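Per the labels, hypothalamic RNA was extracted with Trizol and RNeasy columns, labelled with Cy3 and hybridised to single-colour Agilent ovine arrays. Per the file headers and the submitters' processing notes, the deposited scanner files give an intensity for each spot, made with Agilent Feature Extraction 10.1.1.1, including a processed signal that was background-subtracted within each array. The notes also name limma, without a role. The deposited value table of the authors is taken to be on a log2 scale, because each column lay closest to the log2 signal of its own array; its medians were 8.78 to 8.80 and how it was scaled and filtered is unknown here.

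Control spots were dropped here, as were spots carrying an outlier mark. The processed signal was put on the log2 scale, set relative to its array's 75th percentile, and averaged over the spots of a probe. A probe was tested when well above background on at least 2 of the 6 vehicle arrays. limma 3.58.1 in R 4.3.3 gave two-sided tests with Benjamini-Hochberg adjustment at 0.05 over all probes (4 residual and 1.92 prior degrees of freedom). Plots used matplotlib 3.10.9 and tables pandas 2.3.3 with numpy 2.4.6, in Python 3.11.15. The scripts were tested on simulated data.

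Names came from the files and from RefSeq (assembly ARS-UI_Ramb_v3.0). No gene name was assigned to 13360 probes, and 97 more carried a locus number alone; 8 probes stayed unnamed because file and RefSeq named different genes. No genome coordinates were used. The members and the gene lists were chosen with earlier results of these data known. Named are the 20 brightest genes (the second brightest is not reported here), the 12 of largest and 5 of smallest SD over the fetal arrays, the 10 of smallest p in each direction between the arms, the measured genes of the lists of hypothalamic peptides and receptors and of cell type markers, up to 5 by level from the other lists, and the slide test's examples, which were chosen after their values were seen. Alternatives covered scaling, background correction, filters, outlier marks, the authors' values, blocks, the arrays used and the probes of a gene. Precision is limited by the 4 and 2 arrays. The triclosan arrays were used only where named.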

Additional observations from a re-analysis of the deposited data

Results flagged for a closer look

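Over the 4 fetal vehicle arrays, 127 sets of values (124 genes and 3 array measures) were searched for 1 array whose gap to its nearest neighbour exceeded 0.829 of the whole range. Such a gap was found in 12 sets. Chance gives about 1 in 20 for sets chosen without regard to spread, which does not hold here, since 12 of the genes were chosen for the largest SD over these arrays, NEUROD1 and MGLUR2 among them. NEUROD1 on fetal vehicle 1 had a gap of 0.918 of the range, at -0.54 against -3.02 to -2.82. Fetal vehicle 1 also lay apart for DERL1 (0.930), at -0.44 against -0.19 to -0.17, and for the VEGF receptor FLT1 (0.902), at -5.66 against -6.17 to -6.12. The second NEUROD1 probe also lay apart on fetal vehicle 1, at -1.14 against -3.58 to -3.26. The second probes of DERL1 and FLT1 did not show such a gap. On fetal vehicle 1 that of DERL1 was at -0.65 against -0.63 to -0.57, and that of FLT1 at -5.64 against -6.32 to -5.86.

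On fetal vehicle 3, MGLUR2 lay apart at -4.28 (0.875), for 1 of its 2 probes, and FST, follistatin, lay low at -2.79 against -1.86 to -1.68 (0.835). The second FST probe lay low there as well, at -2.91 against -1.93 to -1.76. On fetal vehicle 2, the receptor NPY2R lay high at -3.52 against -5.13 to -4.98 (0.906); its second probe, with levels from -5.52 to -5.00 in the fetal arm, did not show this. LEP (0.829) and the brighter LHB probe (0.881) lay low on fetal vehicle 2, at -3.43 and 3.41. The second LEP probe, with -2.96, -3.55, -3.77 and -3.87 in the fetal arm, did not. Nor did the dimmer LHB probe, with -3.17, -3.23, -3.40 and -2.80. MC2R (0.888), at -7.83, was well above background on no array, and AQP1 (0.888), at -8.72, on 1. The second AQP1 probe, from -9.05 to -7.87 in the fetal arm, was not lowest on fetal vehicle 2.

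Within the fetal arm, fetal vehicle 2 had the lowest median signal, 315 against 377 to 380 (0.950). It also had the most spots with outlier marks there, 55 against 8 to 13 (0.894). Such marks were not particular to it: maternal vehicle 2, also on slide 2, had 57, and maternal vehicle 1 had 43. The triclosan arrays of slide 2 had 49 and 66, against 5 to 8 on those of slides 1 and 3. The part of median signal and outlier marks in the levels was not tested.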

How the results depend on the processing

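The comparison of the arms called 0 probes in the main processing and in each alternative, the replicate block among them (0 with 6 arrays and 0 with all 13 independent arrays), except 2: with all 7 vehicle arrays as deposited, 6 probes were called, and leaving out 1 array in turn gave 0 to 1, the 1 being without fetal vehicle 1. Only 2 replicate numbers are shared by the arms, with correlations of deviations of 0.47 and 0.14, so the numbers are not taken to pair the samples. Of 418 alternative values for the 20 named genes of the arms, 416 kept their direction, and their adjusted p-values ran from 0.086 to 1.00. Normexp background correction turned TLR9 to 0.48 and KIT to 0.59 and shrank TKDP1 from -2.15 to -0.78, CATHL1B from -1.80 to -1.07, SC5 from -0.77 to -0.46, MCP-3 from -0.74 to -0.077, PSMB8 from -0.33 to -0.092 and AHSP from -0.90 to -0.013; it moved the median of all probes to 0.14, and the cause was not tested. In the authors' values CEBPB was 0.31, AHSP -0.59, TLR9 -0.27 and KIT -0.0023. The slide test, added after the data were seen, called 289 probes, 167 with median scaling, 0 with quantile normalisation, 0 with normexp, 0 in the authors' values, 0 in the triclosan arrays and 0 without each array in turn. The slide test called 240 probes with outlier spots kept and 384 among probes well above background on all 6 arrays. It called 228 with the triclosan arrays of slides 1 to 3 added. The median SD over fetal arrays was 0.22, and 0.16 with normexp, 0.18 in the authors' values, 0.25 with no filter on dim probes, 0.24 with genes well above background on at least 2 arrays, and 0.18 to 0.21 without 1 array. Of 118 levels, 58 moved by more than their SD over the arrays with normexp (LEPR from -6.39 to -4.23), against 7 with quantile normalisation and 7 with outlier spots kept.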

Other observations

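Genes outside the hypothalamic and cell type lists had these levels, given as means ± SD over the 6 vehicle arrays, with the same limit that order is probe brightness. Of energy genes, ATP5MC1 (a subunit of ATP synthase) was at 5.34 ± 0.13 and SLC25A4 (the ADP/ATP carrier) at 4.24 ± 0.16. The neuronal glucose transporter SLC2A3 was at 3.28 ± 0.20 and the glycolytic enzyme ALDOA at 3.23 ± 0.06. In the sterol and fatty acid list, SQLE (squalene epoxidase) was at 4.73 ± 0.08 and FABP5 at 3.68 ± 0.08. Metallothionein MT3 was at 4.34 ± 0.10 and thioredoxin TXN at 3.89 ± 0.17. CCND2 (cyclin D2) led the cell cycle list at 2.27 ± 0.15, with PCNA at -0.10 ± 0.11. Of the interferon and inflammation list, 23 of 30 genes were measured, led by MIF at 2.54 ± 0.18, and ISG15 varied most of its 5 brightest, from -0.08 to 1.47. FOS ranged from -0.07 to 0.98, and EDNRA (an endothelin receptor) led the hypoxia list at 0.83 ± 0.10. Both levels are those of 1 probe: the other FOS probes averaged -4.88 to -3.73, and the other EDNRA probe -5.19.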
